A study of Homo sapiens with 6 samples.

Results

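The genes examined here are 10 pluripotency factors, POU5F1, SOX2, NANOG, KLF4, MYC, LIN28A, LIN28B, SALL4, DNMT3B and TDGF1. They were chosen by name and not by a cut on their values, but with earlier results of these data known. All 10 were found among the 19077 genes of the deposited expression table. Their RNA was followed through 6 libraries of the human pancreatic cancer line SW1990. One library was made from a gemcitabine-resistant derivative, grown with the drug at 100 nM, and another from unsorted parental cells without it. Parental cells were also sorted by flow cytometry into fractions positive and negative for TRA-1-81, with 2 libraries each. Parental cells grew in DMEM/F-12 with serum, and all groups derive from this line. TRA-1-81 is a sugar epitope that marks pluripotent stem cells, where podocalyxin carries it. The sorted libraries are named here by the numbers 0603 and 0610 in their titles. What the numbers mark is not stated, nor whether cultures were separate, so a p-value reflects only the spread between libraries, which may be technical. How the derivative was obtained, and whether it is a single clone, is not given in the sources used here.

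OCT4 (the product of POU5F1), SOX2 and NANOG are transcription factors that occupy many of the same enhancers in embryonic stem cells and maintain one another's expression. KLF4 and MYC complete, with OCT4 and SOX2, the classical set that reprogrammes somatic cells, but both also act outside stem cells, KLF4 in epithelial differentiation and MYC in growth. SALL4 is a zinc-finger partner of OCT4, and the RNA-binding proteins LIN28A and LIN28B block maturation of let-7 microRNAs. DNMT3B is a de novo DNA methyltransferase, and TDGF1 (CRIPTO) is a co-receptor for NODAL.

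The octamer core and the E-box in the promoters of NANOG, SOX2 and KLF4 are shown because OCT4 recognises the first and MYC with MAX the second. RefSeq promoter entries (GRCh38.p14) matched 5 of the 10 members, these 3 with DNMT3B and LIN28B. MYC was left out of this matching. Each line gives the 250 bases before the start site, 5′ to 3′. Capitals mark the octamer core (ATGCAAA, or TTTGCAT on the other strand) in NANOG and SOX2 and the E-box (CACGTG) in KLF4. The windows are chr12:7789152-7789401 on the plus strand, chr3:181711675-181711924 on the plus strand and chr9:107489770-107490019 on the minus strand.
NANOG: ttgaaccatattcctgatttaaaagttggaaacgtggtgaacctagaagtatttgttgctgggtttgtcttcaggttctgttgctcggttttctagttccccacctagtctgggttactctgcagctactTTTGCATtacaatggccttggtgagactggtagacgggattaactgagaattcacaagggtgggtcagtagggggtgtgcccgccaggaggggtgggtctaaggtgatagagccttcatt
SOX2: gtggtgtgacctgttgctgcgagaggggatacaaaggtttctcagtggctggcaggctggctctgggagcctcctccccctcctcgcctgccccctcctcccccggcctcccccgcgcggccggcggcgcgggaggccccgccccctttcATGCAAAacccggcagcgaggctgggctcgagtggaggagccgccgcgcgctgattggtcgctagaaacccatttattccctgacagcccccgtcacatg
KLF4: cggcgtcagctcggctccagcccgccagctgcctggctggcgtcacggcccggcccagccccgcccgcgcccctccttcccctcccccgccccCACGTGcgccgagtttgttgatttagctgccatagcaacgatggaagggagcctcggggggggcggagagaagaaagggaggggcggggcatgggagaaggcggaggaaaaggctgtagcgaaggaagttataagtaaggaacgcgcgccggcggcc

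Searched on both strands, the octamer core was present in 3.94% of the 35116 promoter windows of this length, and the E-box, which reads the same on both strands, in 6.34%. Counted from the start site, the match began at -120 in NANOG, -100 in SOX2 and -157 in KLF4. One of the 2 LIN28B entries also held an E-box, at -47, and the DNMT3B window held neither motif. The windows held 4 CpG dinucleotides in NANOG, 20 in SOX2 and 25 in KLF4, against a median of 11 over all windows. A match describes these letters and does not show that a factor was bound.

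Levels are given as FPKM, a unit that divides the fragments of a gene by its length and by the mapped total of its library, so that different genes can be compared. In each library 5 of the 10 members reached an FPKM of 1, as did 58.5% to 61.5% of all genes. MYC, KLF4, DNMT3B, POU5F1 and SALL4 were above 1 in all 6 libraries, and SOX2, NANOG, LIN28A, TDGF1 and LIN28B were below 1 in all 6. MYC exceeded 96.3% of genes in resistant cells and 85.6% to 87.2% in the 5 parental-line libraries. POU5F1 exceeded 42.97% to 46.4% of genes, and NANOG 30.5% to 34.01%. Read depth cannot be taken from FPKM directly. The lowest values of short olfactory receptor genes placed 3 fragments on a 1 kb transcript at about 0.145 in the resistant library, 0.175 in the parental library and 0.0974 to 0.111 after sorting. This rough floor rests on 3 to 15 genes a library and covers counting error only.

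**Figure D1:**
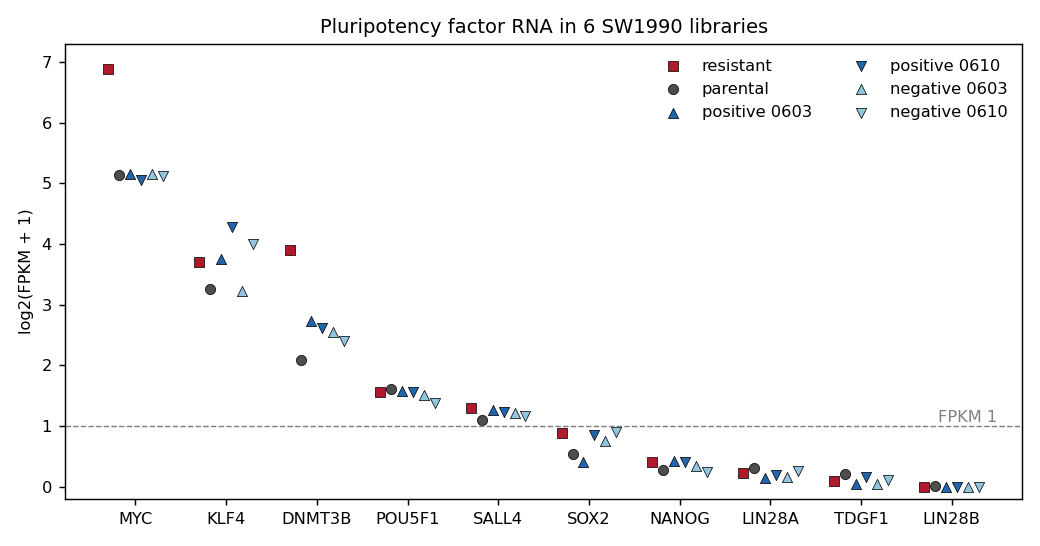
RNA level of each pluripotency factor in each library, as log2(FPKM + 1), with genes ordered by level and a dashed line at an FPKM of 1. The resistant library stands apart for MYC (117) and DNMT3B (14.03), and the 5 genes on the right lie below the line in all libraries.

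Of the core transcription factors, POU5F1 (hg19 chromosome 6, 31132114 to 31138451) alone was above an FPKM of 1. It was at 1.95 in resistant cells against 2.04 in the parental library, 2.004 and 1.95 in positive cells, and 1.85 and 1.59 in negative cells, numbers 0603 and 0610 in that order here and throughout. The resistant value lay within the range of the parental-line libraries, and both positive libraries lay above both negative ones. POU5F1 has copies elsewhere in the genome that can share its reads. POU5F1B, the copy present in the table, was at 0.0218 in resistant cells against 0.652 in the parental library, and at most 0.286 after sorting. TCF19 lies 121 bases from POU5F1 and was 18.4 to 32.4 times as high. TCF19 was at 58.4 in resistant cells against 37.6 in the parental library, 64.8 and 51.5 in positive cells, and 58.05 and 41.4 in negative cells. Whether reads were counted by strand is not given in the sources used here, and the part of TCF19 and the copies in the POU5F1 level was not tested.

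SOX2 (hg19 chromosome 3, 181429712 to 181432223) was at 0.859 in resistant cells against 0.462 in the parental library, 0.326 and 0.804 in positive cells, and 0.680 and 0.861 in negative cells. Over its 2512 bases this corresponds to roughly 45 fragments in resistant cells against 20 in the parental library, 25 and 55 in positive cells, and 49 and 62 in negative cells. SOX2 was thus low but above the level of a few fragments, and its groups overlapped. NANOG (hg19 chromosome 12, 7941995 to 7948655) was at 0.328 in resistant cells against 0.214 in the parental library, 0.339 and 0.332 in positive cells, and 0.266 and 0.179 in negative cells. Both positive libraries exceeded both negative ones for NANOG, by 0.08 within 0603 and 0.18 within 0610 on the log2(FPKM + 1) scale. SOX2 and NANOG failed the filter on low values of the main comparison. Without that filter limma gave an adjusted p of 0.863 for NANOG (log2 fold change 0.13 ± 0.04, SE), and SOX2 did not pass either, at -0.19 ± 0.17 (SE). NANOG also has copies that can share its reads.

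KLF4 (hg19 chromosome 9, 110247133 to 110252047), a zinc-finger factor of epithelial and stem cells, was at 12.1 in resistant cells against 8.62 in the parental library, 12.4 and 18.5 in positive cells, and 8.38 and 15.04 in negative cells. Within each number the positive library was the higher, but the groups overlapped, because negative 0610 exceeded positive 0603. KLF4 also separated the numbers. It was higher in 0610 than in 0603 by 0.54 among positive and 0.77 among negative cells on the log2(FPKM + 1) scale, where the medians over all tested genes were 0.0109 and 0.00514. Of the 11533 tested genes, 71 (0.616%) were at least as much higher in 0610 in both fractions.

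MYC, the growth-promoting factor that pairs with MAX, was the most abundant member in every library. It was at 117 in resistant cells against 34.2 in the parental library, 34.7 and 32.3 in positive cells, and 34.8 and 33.7 in negative cells. The 5 parental-line libraries lay close together, and the resistant library lay far above them.

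SALL4 (hg19 chromosome 20, 50400583 to 50419048) was at 1.47 in resistant cells against 1.15 in the parental library, 1.40 and 1.34 in positive cells, and 1.32 and 1.23 in negative cells. Both positive libraries were slightly above both negative ones. DNMT3B (hg19 chromosome 20, 31350191 to 31397162) was at 14.03 in resistant cells against 3.25 in the parental library, 5.62 and 5.13 in positive cells, and 4.84 and 4.32 in negative cells. The resistant library was the highest and the unsorted parental library the lowest, with the sorted libraries between them, positive above negative.

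The remaining members had little RNA in any library. LIN28A was at 0.168 in resistant cells against 0.244 in the parental library, 0.108 and 0.149 in positive cells, and 0.122 and 0.193 in negative cells. TDGF1 was at 0.0722 in resistant cells against 0.161 in the parental library, 0.0333 and 0.120 in positive cells, and 0.0337 and 0.0769 in negative cells. LIN28B was listed at 0 in 5 libraries and at 0.00802 in the parental one, and an exact 0 in such a table can be a failed estimate. For these 3 genes the positive and negative libraries overlapped or were listed alike.

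Whether display of the epitope goes with RNA of the factors was addressed by setting positive against negative cells. The fit kept genes that reached an FPKM of 1 in 2 or more of the sorted libraries, which left 5 members, POU5F1, KLF4, MYC, SALL4 and DNMT3B, and removed the other 5. Of these 5, 0 passed an adjusted p of 0.05 in limma (Benjamini-Hochberg over 11533 genes), where 0.00867% of all tested genes passed, and 0 had an unadjusted p under 0.05, against 565 of all genes. Within both numbers, 4 of the 5 were higher in positive cells, as were 38.4% of all tested genes. KLF4 averaged 15.5 ± 4.27 in positive against 11.7 ± 4.71 in negative cells (SD, n = 2 each). Its log2 fold change was 0.40 ± 0.32 (SE), with limma giving an adjusted p of 0.9999, and it came to 0.52 within 0603 and 0.28 within 0610. The error of KLF4 was the widest of the 5. DNMT3B averaged 5.37 ± 0.346 in positive against 4.58 ± 0.371 in negative cells (SD, n = 2 each), and its log2 fold change was 0.19 ± 0.09 (SE), with 0.18 within 0603 and 0.20 within 0610.

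The log2 fold change of POU5F1 was 0.13 ± 0.09 (SE), with 0.08 within 0603 and 0.19 within 0610. That of SALL4 was 0.06 ± 0.08 (SE), with 0.05 and 0.07 within the numbers. That of MYC was -0.03 ± 0.07 (SE), with -0.0030 and -0.06. The median over all tested genes was 0.01, and the adjusted p from limma was 0.9999 for each of these genes and for DNMT3B. In this fit, which has no term for the number, these differences were not told from the spread between libraries, which does not show that the levels were alike. In bulk samples, fewer cells with a transcript and less of it per cell cannot be told apart.

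**Figure D2:**
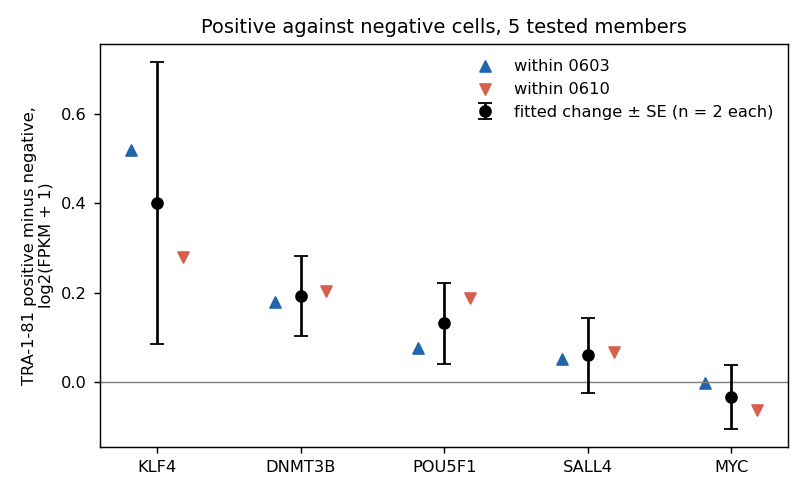
TRA-1-81 positive minus negative difference of the 5 tested factors on the log2(FPKM + 1) scale. Circles are fitted changes with their standard errors, and triangles the differences within 0603 and within 0610. KLF4 has the highest value, 0.40, and the widest error, 0.32, and MYC lies at -0.03.

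PODXL, which encodes podocalyxin, was at 108 and 109 in positive against 104 and 110.3 in negative cells, and the fractions overlapped. In resistant cells it was at 71.7 against 153 in the parental library, below all 5 parental-line libraries, with a log2 ratio of -1.08 and -1.18 after quantile normalization. Genes that accompany the core factors in pluripotent cells had little RNA. Of 25 further pluripotency genes, 23 were below an FPKM of 1 in all 6 libraries, the highest of them at 0.424. The exceptions were GAL, which encodes galanin, and TERT, the catalytic subunit of telomerase. GAL was at 1.54 and 0.865 in positive against 1.04 and 0.881 in negative cells and did not pass the test. TERT was at 0.317 in resistant cells against 1.33 in the parental library, and at 0.599 to 0.964 after sorting.

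With 1 resistant and 1 parental library, their difference has no replicate check and no p-value, and exposure to the drug and resistance to it cannot be told apart. Of the 5 members measured (FPKM of 1 or more in either), 2 were at least 2-fold higher in resistant cells and 0 were at least 2-fold lower. Of the 12066 genes measured, 13.5% were higher and 6.90% lower by that limit. These limits and all log2 ratios are on the log2(FPKM + 1) scale, which is narrower than FPKM at low levels. The log2 ratio was 1.82 for DNMT3B and 1.75 for MYC. In FPKM itself, DNMT3B reached 4.31 times and MYC 3.43 times the parental level. Both also exceeded each of the 5 parental-line libraries by at least 2-fold, as did 5.70% of genes. Set against the sorted mean, the log2 ratio was 1.76 for MYC and 1.33 for DNMT3B.

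The other members were closer. The log2 ratio of KLF4 was 0.45 over parental cells and -0.15 over the sorted mean, so its direction depended on the library it was set against. POU5F1 had -0.05 and SALL4 0.19 over parental cells, where the median gene had 0.09. After quantile normalization the median gene had -0.06, POU5F1 -0.38 and SALL4 -0.14, so the sign of SALL4 flipped with the scaling. MYC then had 1.62 and DNMT3B 1.65. Between sorted and unsorted parental cells, 0 of 5 members were 2-fold apart, where 7.62% of genes were. The highest of these log2 ratios were 0.60 for KLF4 and 0.49 for DNMT3B.

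Epithelial markers were high in every library, with EPCAM, CDH1, MUC1 and 4 keratins at 50.2 to 2303. Of 7 fibroblast markers, COL1A1 (14.1) and LUM (6.04) moved with MYC and DNMT3B in the resistant library, and the other 5 were at most 0.124 in any library. The sum of the 7 was 20.3 in resistant cells against 2.85 in the parental library. Of the 6 blood cell markers, PTPRC and CD3E were at most 0.0490 in any library, but LYZ and HLA-DRA were not near 0. LYZ was at 2.28 in resistant cells against 2.88 in the parental library, 3.34 and 4.86 in positive cells, and 2.92 and 3.69 in negative cells. HLA-DRA was at 1.83 in resistant cells against 0.851 in the parental library, 2.66 and 3.15 in positive cells, and 1.601 and 2.84 in negative cells, and both genes were higher in positive than in negative cells within each number, as 4 of the 5 tested members were. The sum of the 6 was 6.45 and 8.34 in positive against 4.96 and 7.09 in negative cells. Of 3 endothelial markers, CDH5 was at 1.56 and 2.60 in positive against 2.04 and 4.01 in negative cells, and PECAM1 and VWF were at most 0.528 in any library. DCN, a fibroblast marker, was listed at 0 in resistant cells and in every sorted library, and at 0.0194 in the parental library. The part of these markers in the members' values was not tested.

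Genes that work with MYC stood on either side of their parental level in resistant cells. MAX, its obligate partner, was at 52.5 in resistant cells against 34.4 in the parental library. MXD1, a repressor that competes for MAX, was at 27.1 in resistant cells against 6.31 in the parental library, 4.19 and 7.65 in positive cells, and 2.92 and 5.34 in negative cells. MYCN, a MYC paralogue, was at 0.574 in resistant cells against 4.34 in the parental library, 1.51 and 1.42 in positive cells, and 2.24 and 1.78 in negative cells, and so was lowest in the library where MYC was highest. Of 13 genes of this network, 2 were at least 2-fold higher in resistant cells (MYC and MXD1) and 1 lower (MYCN). The list's median log2 ratio was 0.23, and MYCN had -0.80 against the sorted mean. In FPKM the resistant level of MYCN was 0.331 times the sorted mean, a difference that the added 1 reduces at such low levels.

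All 26 listed MYC targets, which serve ribosome assembly, nucleotide synthesis and metabolism, stood at 11.99 or more. Of these, 3 were at least 2-fold higher in resistant cells and 0 lower, with a median log2 ratio of 0.26. After quantile normalization 2 were past 2-fold and the median was 0.18. ODC1, the ornithine decarboxylase of polyamine synthesis, was at 242 in resistant cells against 94.1 in the parental library, and 108 to 127 after sorting. SRM, spermidine synthase, was at 80.4 in resistant against 30.3 in parental cells, but at 64.4 to 84.8 after sorting, a range that includes the resistant value. NPM1, a nucleolar chaperone, had the lowest ratio of the list, at 978 in resistant cells against 1326 in the parental library. After sorting NPM1 was at 722 to 888, below the resistant value. All 26 targets were lower in 0610 than in 0603 in both fractions, as were 38.3% of tested genes. Between positive and negative cells 0 of 26 passed the test, with a median of -0.05.

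Of 7 DNA methylation genes measured, DNMT3B alone was at least 2-fold higher in resistant cells, and the list's median log2 ratio was 0.10. DNMT3A, the other de novo enzyme, was at 7.76 in resistant cells against 6.64 in the parental library. DNMT1, the maintenance enzyme, was at 38.7 in resistant against 36.1 in parental cells, and at 46.3 to 55.2 after sorting. DNMT3L, a cofactor of the de novo enzymes in germ cells, was at most 0.0133. TET3, which oxidises methylcytosine, had the lowest ratio, -0.39.

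Several KLF and SOX relatives were more abundant than KLF4 and SOX2. KLF5, a factor of proliferating epithelium, was at 111 in resistant cells against 75.8 in the parental library, and SOX9, a duct cell factor, at 18.1 in resistant against 25.1 in parental cells. On the log2(FPKM + 1) scale, 2 of 12 KLF genes exceeded their parental level by at least 2-fold in resistant cells, KLF16 (1.22) and KLF6 (1.15), and 1 was lower by as much, KLF2 (-1.13). KLF8 and KLF13 were just short of that limit, at 0.985 and 0.944, although in FPKM KLF8 was at 1.13 in resistant against 0.0762 in parental cells and KLF13 at 13.8 in resistant against 6.70 in parental cells. Against the sorted mean none of KLF16, KLF6 and KLF2 reached 2-fold, at 0.05, 0.66 and -0.80. Like KLF4, 10 of 11 tested KLF genes, KLF4 included, were higher in 0610 in both fractions, as were 42.4% of tested genes. Of 7 SOX genes, 3 exceeded their parental level by at least 2-fold in resistant cells and 0 were lower by as much. SOX21 was at 6.49 in resistant cells against 0.510 in the parental library, SOX4 at 20.7 in resistant against 8.74 in parental cells, and SOX15 at 18.5 in resistant against 8.30 in parental cells, where SOX15 fell short of 2-fold after quantile normalization (0.97). Against the sorted mean SOX21 had 1.64, while SOX4 (0.71) and SOX15 (0.43) fell short of 2-fold. Between positive and negative cells 0 of 11 KLF and 0 of 8 SOX genes passed the test.

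**Figure D3:**
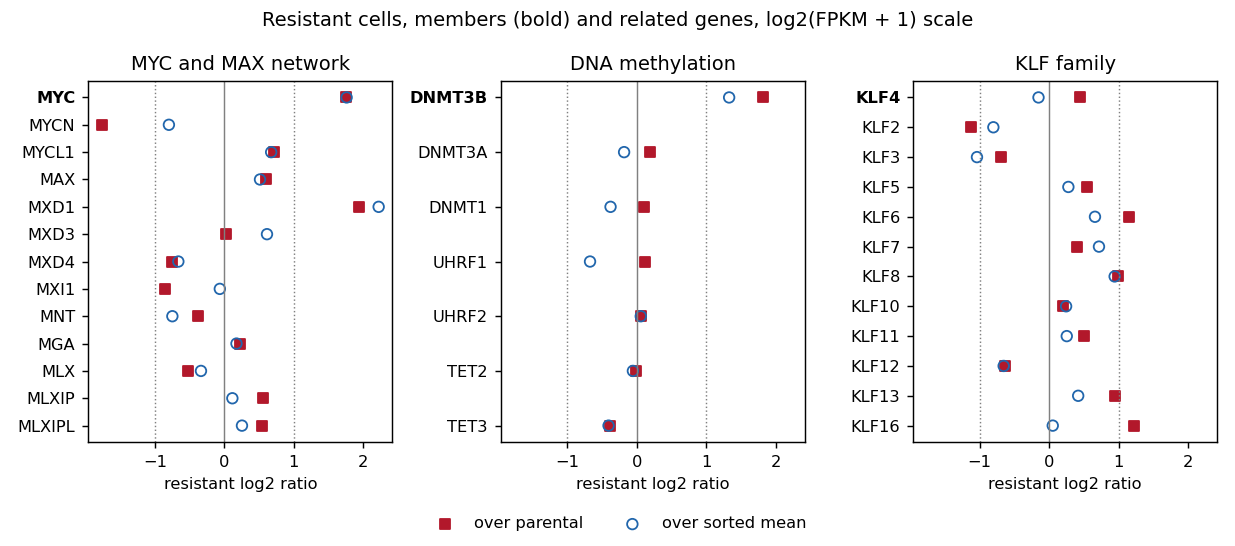
Log2 ratio of the resistant library over the parental library (squares) and over the sorted mean (open circles), on the log2(FPKM + 1) scale, for measured genes of 3 lists. Dotted lines mark 2-fold. MYC (1.75 and 1.76) and DNMT3B (1.82 and 1.33) are past the line against both, and KLF4 (0.45 and -0.15) against neither.

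The let-7 pathway on which LIN28 acts was expressed. Of 7 processing genes, 1 was at least 2-fold higher in resistant cells, DROSHA, the nuclease that cuts primary microRNAs, at 30.4 in resistant cells against 11.1 in the parental library and 10.9 to 13.4 after sorting. Of 8 let-7 targets, 3 were at least 2-fold higher in resistant cells (MYC, CDC25A and HMGA2). HMGA2, a chromatin protein of embryonic and tumour cells, averaged 28.5 ± 0.733 in positive against 22.1 ± 0.514 in negative cells (SD, n = 2 each). Its log2 fold change of 0.35 ± 0.07 (SE) had an adjusted p of 0.554 in limma and did not pass. The let-7 RNAs are not analysed here.

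For CRIPTO, the ligand NODAL and the inhibitors LEFTY1 and LEFTY2 were at most 0.124, while SMAD3, a transducer, was at 35.7 in resistant cells against 44.5 in the parental library. Of 7 genes of this pathway measured, 0 were 2-fold apart in either direction on the log2(FPKM + 1) scale. ACVR2B, a receptor, was the lowest, at 0.378 in resistant against 1.27 in parental cells, 0.297 times as high in FPKM but with a log2 ratio of -0.72 on that scale. FOXH1, a SMAD partner, had the highest ratio, at 9.69 in resistant against 4.95 in parental cells. Of 6 germ layer genes, 5 exceeded their parental level by at least 2-fold in resistant cells, as did 13.5% of all genes measured. The median log2 ratio was 1.17 as deposited, and 2 genes stayed past 2-fold after quantile normalization. Against the sorted mean the median was 0.69, and GATA4 (0.59), CDX2 (0.80) and MSX1 (0.53) fell short of 2-fold. The 2 genes past 2-fold in each of these settings were NES (nestin) and TUBB3, a neuronal tubulin. NES was at 11.6 in resistant against 1.097 in parental cells, and at 3.73 to 4.36 after sorting. TUBB3 was at 42.4 in resistant against 7.19 in parental cells, and at 17.6 to 20.4 after sorting. Over the sorted mean their log2 ratios were 1.30 and 1.12. PAX6, an eye and neural factor, was lower than in the parental library, at 3.06 in resistant against 6.54 in parental cells. Quantile normalization moved that log2 ratio past 2-fold (-1.10, against -0.89 without it). After sorting PAX6 was at 1.61 to 2.98, below the resistant value.

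Genes nearest in pattern to a member were ranked by the root mean square difference between log2(FPKM + 1) profiles over the 6 libraries, each centred on its mean, among 11602 genes. MYC, DNMT3B and KLF4 varied enough to be ranked. Nearest to MYC were OXCT1, a ketone body enzyme (0.0867), NDUFB9, a subunit of respiratory complex I (0.0903), and TPRA1 (0.0916). OXCT1 was at 46.3 in resistant cells against 15.7 in the parental library, and 13.6 to 15.2 after sorting. Nearest to DNMT3B were KIAA0922 (0.0587), the homeobox gene SIX2 (0.0639) and the kinase gene LIMK2 (0.0663). LIMK2 was at 38.6 in resistant cells against 10.8 in the parental library, 15.1 and 14.02 in positive cells, and 13.4 and 12.5 in negative cells. Nearest to KLF4 were APOL6 (0.0981), the interferon-induced exonuclease gene ISG20 (0.133) and NEURL1B (0.158). APOL6 was at 14.8 in resistant cells against 11.6 in the parental library, 15.5 and 20.8 in positive cells, and 11.8 and 17.5 in negative cells, the same order of sorted libraries as KLF4. These rankings describe 6 libraries and carry no test.

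**Figure D4:**
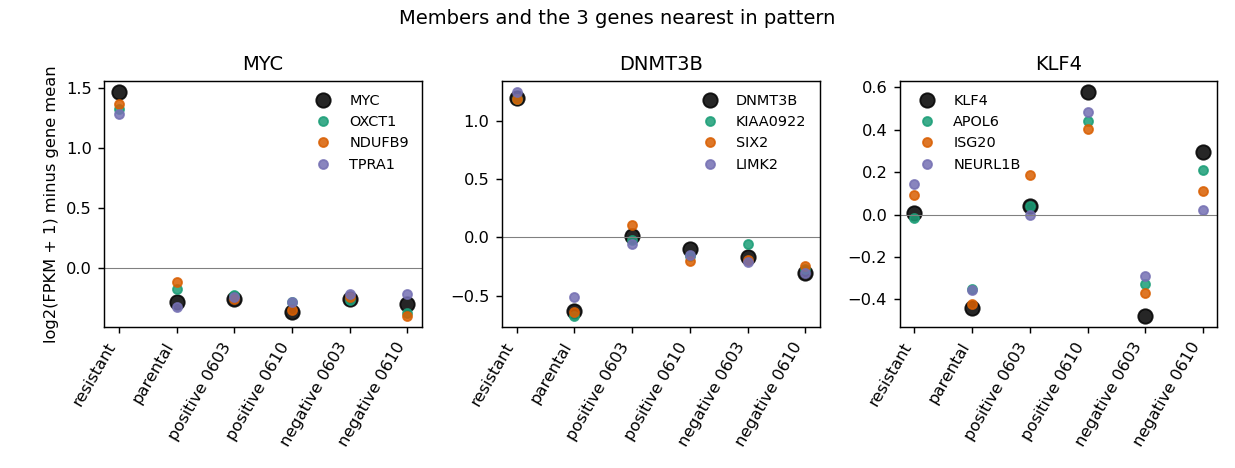
Profiles of MYC, DNMT3B and KLF4 with their 3 nearest genes over the 6 libraries, as log2(FPKM + 1) minus the gene's own mean. The resistant library is highest for MYC, DNMT3B and their nearest genes, and positive 0610 is highest for KLF4 and its nearest genes.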

How the data were processed

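RNA was sequenced in 6 libraries of SW1990 cells. The authors deposited 1 table of gene values whose header names no unit. The values are taken as FPKM, since Cufflinks 2.1.1 stands in the submitters' processing notes, with TopHat2 2.0.11, CASAVA 1.8.2 and hg19 and no roles or settings. Read counts could not be recovered. For 191 repeated symbols the row of highest mean was kept. Table starts were read as counted from 0, as 314 of 345 short olfactory receptor genes then had spans divisible by 3, and 1 was added.

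The log2(FPKM + 1) scale understates changes of low genes. To compare positive with negative cells, limma 3.58.1 (R 4.3.3, trend, two-sided, no covariate) was run, after tests on simulated data. Single libraries were compared by a 2-fold limit. All members are named. Of other lists, up to 2 highest and 2 lowest genes per comparison could be named, with the 3 genes nearest in pattern and PODXL. MAX, DNMT1, DNMT3L, KLF5, NODAL, LEFTY1, LEFTY2, SMAD3, TCF19, POU5F1B, KLF8, KLF13, HMGA2 in resistant cells, and the marker genes were singled out after their values were seen. The members and lists were chosen with earlier results of these data known. Some genes of these lists are not reported here. Alternatives were a replicate block, pseudocounts of 0.1 and 5, other filters, quantile normalization, summed rows and leaving out each sorted library.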

Additional observations from a re-analysis of the deposited data

How the results depend on the processing

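With 0603 and 0610 as a replicate block, limma called 1484 of the 11533 tested genes, against 1 without it. Of the 5 tested members, 2 were called in place of 0. These were KLF4 (0.40 ± 0.06, SE, limma adjusted p = 0.00143) and DNMT3B (0.19 ± 0.05, SE, limma adjusted p = 0.0462), both higher in positive cells. With the block, the limma adjusted p was 0.279 for POU5F1, 0.662 for SALL4 and 0.616 for MYC. The labels do not say that the numbers pair the libraries, and there are only 2 pairs. Deviations from the fraction means correlated at 0.65 across genes between libraries sharing a number, a hint from the data and not the design.

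Genes called numbered 0 without a filter, 0 at an FPKM of 5 or more in 2 libraries and 0 after quantile normalization. Leaving out 1 library gave 1 to 5: 5 without positive 0603, 2 without positive 0610 and 3 without negative 0610, where the lone library is assumed to vary like the pair. Members called stayed at 0 in all of these. The KLF4 log2 fold change was 0.01 without negative 0603, 0.13 without positive 0610, 0.67 without positive 0603 and 0.79 without negative 0610. Over the same fits DNMT3B ran from 0.124 to 0.260, POU5F1 from 0.063 to 0.200 and SALL4 from 0.033 to 0.086, with the lowest value of each without negative 0610. That of MYC ranged from -0.084 without positive 0603 to 0.018, a reversed sign, without positive 0610. Members reaching an FPKM of 5 in place of 1 numbered 3 in the resistant library, 2 in the parental, 3 in each positive and 2 in each negative library. The counts of members 2-fold apart did not change under their alternatives. Low levels kept SOX2, NANOG, LIN28A, LIN28B and TDGF1 out of the filtered test.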
